A study of Mus musculus with 3 samples.

Results

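The TNF superfamily of ligands and receptors was examined as 38 genes, 14 ligands and 24 receptors, among 19938 genes with values. Members were taken by symbol: the genes whose names begin with Tnfsf or Tnfrsf and a number, together with Tnf, Lta, Ltb, Ltbr, Cd40, Cd40lg, Fas, Fasl and Cd27. Each of the 38 genes was read by 1 probe set. A further probe set named 3 genes together, Tnfsfm13, Tnfsf13 and Tnfsf12, and entered no comparison, so the ligands APRIL (Tnfsf13) and TWEAK (Tnfsf12) have no value here.

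The samples were whole kidney of female CBL/6 mice aged 8 to 10 weeks, hybridised to 3 Affymetrix arrays. The control array held RNA of mice given no treatment. The NTS array held RNA of mice in which nephritis was induced by nephrotoxic serum, a sheep antiserum against the glomerulus, injected once at 13.5 ug per g body weight. The NTS/PGE2 array held RNA of mice that received this serum and then daily prostaglandin E2 (PGE2), a lipid mediator, at 5 ug per g body weight from day 2; treated mice were killed on day 7. The labels do not say how many animals gave the RNA of an array.

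TNF family ligands are membrane proteins, several of them also shed in soluble form, that assemble as trimers and cluster their receptors. One class of receptors carries a cytoplasmic death domain and can start apoptosis through FADD and caspase-8. Many of the others bind TRAF adaptors and activate NF-kappaB and stress kinases. In the kidney the family is known for tubular cell death, glomerular inflammation and the talk between infiltrating leukocytes and resident cells.

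As each group had 1 array, the differences have no replicates behind them, no test was possible and no p-value was computed. Values are on the log2 scale of the RMA method, where a difference of 1 is 2-fold. A gene passed the filter on dim genes in a comparison if its brighter value was at or above the array's median probe set, which lay at 7.11 for control and NTS and at 7.14 for NTS/PGE2. Of the 38 members, 18 passed in at least 1 comparison and 20 in none. As a gauge of technical spread, the gap between probe sets of genes with 2 bright ones gave an SD per probe set (the probe set SD) of 0.22 for NTS against control (480 genes), 0.22 for NTS/PGE2 against NTS (478 genes) and 0.13 for NTS/PGE2 against control (469 genes). It does not hold the spread between animals. Kidney markers were bright, with a mean log2 value over 9 proximal tubule genes of 12.70 in control kidney, 11.15 with NTS and 12.71 with NTS/PGE2. Genes of fat set the control array apart, with a mean over 9 genes of 9.74 there against 6.88 with NTS and 6.65 with NTS/PGE2. Urothelial markers were also highest there, with a mean over 8 genes of 8.30 against 7.13 with NTS and 6.70 with NTS/PGE2. The part of these genes in the results was not tested. In whole tissue, fewer cells of a type and less RNA per cell cannot be told apart.

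The differences of 3 genes stood out among the members. With NTS the TWEAK receptor gene Tnfrsf12a and the decoy receptor gene Tnfrsf23 were more than 2-fold higher than in control kidney, and the TRAIL gene Tnfsf10 was more than 2-fold lower. With NTS/PGE2 the 3 genes lay nearer to the control values. Among the 18 members that passed the filter for NTS against control, 2 were at least 2-fold higher and 1 at least 2-fold lower, 3 in all, where 8.12% of the 11778 passing genes differed as much (2.70% higher, 5.42% lower). For NTS/PGE2 against NTS, 1 of 18 was at least 2-fold higher and 2 at least 2-fold lower, against 4.15% and 3.28% of 11699 genes and 7.44% either way. For NTS/PGE2 against control, 0 of 14 members were 2-fold different, against 0.720% of 11534 genes. These are counts by a rule of size, and each array enters 2 of the 3 comparisons. Tnfrsf23 passed the filter through its NTS value alone, so it entered these counts only by being high there. Tnfrsf4 and Tnfrsf9 entered the 18 passing members in the same way.

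**Figure D1:**
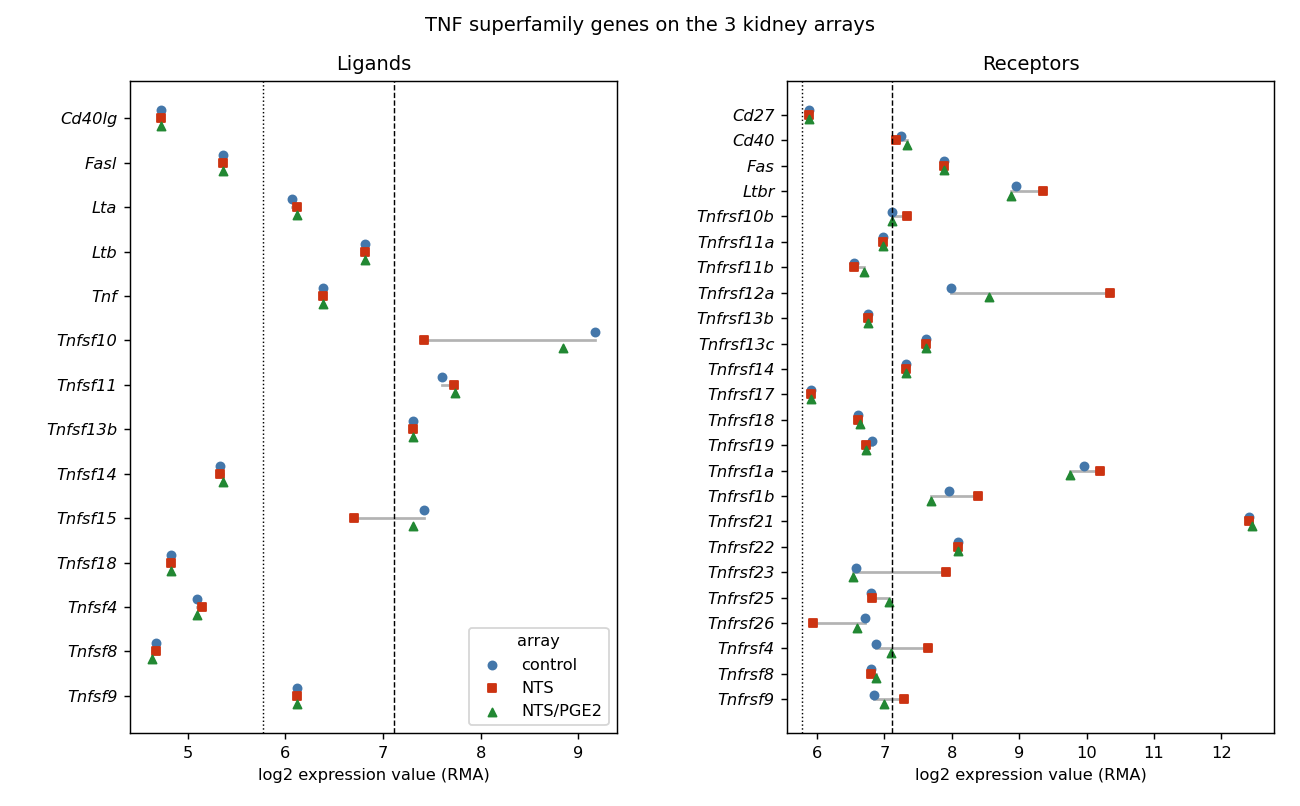
The log2 expression value (x axis) of each ligand (left) and receptor (right) for control (circles), NTS (squares) and NTS/PGE2 (triangles); the markers are set slightly apart in height, the dashed line is the median of all probe sets on the control array, 7.11, and the dotted line its 25th percentile, 5.77. Tnfsf10 and Tnfsf15 had their lowest marker on the NTS array, Tnfrsf12a and Tnfrsf23 had their highest there, and many other members had 3 markers at one value.

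The promoter windows of the 3 genes past 2-fold are printed because they are the members on which the comparisons turn, with those of Tnfrsf9 and Ltb because NF-kappaB, the factor downstream of most of these receptors, has its consensus match there. Each window holds the 250 bases before the gene's start, 5′ to 3′ on the gene's strand, from RefSeq with build GRCm38.p6. Capitals mark a match to NF-kappaB or to the AP-1 motif TGANTCA; windows without capitals held neither, nor the cAMP response element TGACGTCA.
Tnfrsf12a (chr17:23677450-23677699, minus strand): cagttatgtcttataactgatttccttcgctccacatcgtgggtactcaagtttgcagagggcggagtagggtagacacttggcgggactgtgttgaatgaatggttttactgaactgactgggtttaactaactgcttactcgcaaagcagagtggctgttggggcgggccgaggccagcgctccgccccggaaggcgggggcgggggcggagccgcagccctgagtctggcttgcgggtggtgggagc
Tnfrsf23 (chr7:143685876-143686125, minus strand): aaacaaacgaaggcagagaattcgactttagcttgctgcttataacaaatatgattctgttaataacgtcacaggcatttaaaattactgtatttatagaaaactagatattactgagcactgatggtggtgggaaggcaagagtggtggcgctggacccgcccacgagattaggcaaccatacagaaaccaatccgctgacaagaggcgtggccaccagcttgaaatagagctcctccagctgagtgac
Tnfsf10 (chr3:27316827-27317076, plus strand): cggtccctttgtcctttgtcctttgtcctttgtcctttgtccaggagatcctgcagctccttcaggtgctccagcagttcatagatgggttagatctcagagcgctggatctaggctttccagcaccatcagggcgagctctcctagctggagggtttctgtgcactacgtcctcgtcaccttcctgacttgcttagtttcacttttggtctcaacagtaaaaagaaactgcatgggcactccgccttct
Tnfrsf9 (chr4:150927749-150927998, plus strand): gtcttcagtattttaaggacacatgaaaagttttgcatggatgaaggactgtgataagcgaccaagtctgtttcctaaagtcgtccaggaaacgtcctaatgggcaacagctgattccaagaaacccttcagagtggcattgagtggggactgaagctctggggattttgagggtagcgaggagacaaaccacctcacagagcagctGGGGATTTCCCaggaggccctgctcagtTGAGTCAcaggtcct
Ltb (chr17:35194257-35194506, plus strand): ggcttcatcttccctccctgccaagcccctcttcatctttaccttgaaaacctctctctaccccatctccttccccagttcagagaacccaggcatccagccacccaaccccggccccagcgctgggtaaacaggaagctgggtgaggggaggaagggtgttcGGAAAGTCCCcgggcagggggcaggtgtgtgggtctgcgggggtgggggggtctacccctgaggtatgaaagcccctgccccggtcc

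Both strands were searched, and the AP-1 and cAMP motifs cannot share a match. A window was found for 30 of the 38 members, with 2 windows for 4 of them and 34 in all. NF-kappaB matched in 3 of the 34 windows (8.82%), those of Ltb, Tnfrsf8 and Tnfrsf9, against 3.9% of all 32851 windows of this length. In the Tnfrsf9 window 2 overlapping NF-kappaB matches, 34 to 43 and 33 to 42 bases before the start, form 1 stretch of capitals, and an AP-1 match lies 9 to 15 bases before the start. The Ltb match lies 78 to 87 bases before the start. AP-1 matched in 5 windows (14.7%), those of Fas, Tnfrsf8, Tnfrsf9, Tnfsf13b and Tnfsf14, against 6.75% of all windows. The cAMP element, searched because PGE2 signals partly through cAMP, matched in 0 of the 34 windows and in 1.55% of all windows. A match says only that these letters are present. Of the members with an NF-kappaB match, Ltb and Tnfrsf8 had the same value on the control and NTS arrays, and Tnfrsf9 was higher on the NTS array by 0.45.

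Tnfrsf12a encodes Fn14, a small receptor without a death domain that binds TWEAK and is known to be induced in injured epithelium. Its log2 value (probe set 10448307) was 7.99 in control kidney, 10.35 with NTS and 8.55 with NTS/PGE2. The NTS array was the high one, 5.14-fold above control, a difference of 2.36 that ranked 34 from the top among the 11778 genes. NTS/PGE2 lay 3.49-fold below NTS, and the difference of -1.80 ranked 94 from the bottom of 11699 genes. Compared with control it was still 1.47-fold higher on the NTS/PGE2 array, a difference of 0.56 that ranked 72 from the top of 11534 genes; no other member was as far above control on that array. All 9 measured markers of injured tubule also stood higher with NTS than in control kidney. At least 2-fold higher were 7 of the 9, against 2.70% of genes. The mean of these markers was 8.79 in control kidney, 11.14 with NTS and 8.47 with NTS/PGE2. Their differences for NTS/PGE2 against control ran from -1.30 for Lcn2 to 0.73 for Havcr1, with a median of -0.17. The markers' part in the Tnfrsf12a difference was not tested.

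TRAIL, the product of Tnfsf10, kills sensitive cells through the death receptor encoded by Tnfrsf10b; the mouse receptors encoded by Tnfrsf22 and Tnfrsf23 bind TRAIL but lack a functional death domain, and osteoprotegerin (Tnfrsf11b) binds it in solution. The ligand's log2 value (probe set 10491091) was 9.17 in control kidney, 7.42 with NTS and 8.84 with NTS/PGE2. The NTS array was the low one, 3.35-fold below control, a difference of -1.75 that ranked 191 from the bottom. NTS/PGE2 was 2.67-fold above NTS and 1.26-fold below control, with differences of 1.42 and -0.33.

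The decoy gene Tnfrsf23 (probe set 10569504) went the other way. It read 6.57 in control kidney, 7.91 with NTS and 6.54 with NTS/PGE2, 2.52-fold higher on NTS than on control and 2.58-fold lower on NTS/PGE2 than on NTS. Only its NTS value reached the median of its array. The death receptor gene Tnfrsf10b read 7.12, 7.34 and 7.12 on the control, NTS and NTS/PGE2 arrays, and its difference of 0.23 was about the size of the probe set SD. Tnfrsf22 read 8.10 on all 3 arrays. Tnfrsf11b read 6.55 in control kidney and with NTS and 6.70 with NTS/PGE2 and did not pass the filter.

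Tnfrsf26, Tnfrsf22 and Tnfrsf23 stand next to each other in the RefSeq gene table, with 0 protein-coding genes between neighbours, and are close in sequence, so the separate values of the 3 genes are uncertain. Tnfrsf26, an orphan receptor gene, read 6.72 in control kidney, 5.95 with NTS and 6.59 with NTS/PGE2. Its difference of NTS from control was -0.77, on the opposite side from Tnfrsf23 at 1.33, while Tnfrsf22 had equal values. All values of Tnfrsf26 lay below the array medians.

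Tnfsf15 encodes TL1A, a ligand known from endothelial cells, whose receptor DR3 is encoded by Tnfrsf25 and carries a death domain. Tnfsf15 read 7.42 in control kidney, 6.70 with NTS and 7.31 with NTS/PGE2. As with Tnfsf10, the NTS array was the low one, 1.65-fold below control, and NTS/PGE2 was 1.52-fold above NTS. Tnfrsf25 read 6.81, 6.82 and 7.07 on the control, NTS and NTS/PGE2 arrays and passed the filter in no comparison. Beside these 2 ligands, all 10 endothelial markers were lower with NTS than in control kidney. At least 2-fold lower were 7 of the 10, against 5.42% of genes. The endothelial mean was 10.15 in control kidney, 8.70 with NTS and 9.97 with NTS/PGE2. The means of the tubule markers were also lowest with NTS: all 9 of the proximal tubule, all 7 of the loop and distal tubule and 7 of 8 of the collecting duct were lower with NTS, at least 2-fold in 7, 5 and 4 of them. The loop and distal mean was 11.92 in control kidney, 10.36 with NTS and 12.01 with NTS/PGE2, and the collecting duct mean 9.86, 8.66 and 9.91. The part of any of these markers in the ligand differences was not tested.

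TNF itself was dim. Tnf read 6.39 on all 3 arrays, below each median, and the lymphotoxin genes Lta and Ltb, its chromosomal neighbours, were dim as well. Lta read 6.07 in control kidney and 6.13 on the other arrays, and Ltb 6.81 on all 3. The receptor genes Tnfrsf1a, Tnfrsf1b and Ltbr passed the filter, and each had its highest value on the NTS array and its lowest on the NTS/PGE2 array. Tnfrsf1a, the death domain receptor for TNF found on most cells, read 9.96 in control kidney, 10.20 with NTS and 9.75 with NTS/PGE2. Tnfrsf1b, the TNF receptor of leukocytes and endothelium, read 7.95 (control), 8.38 (NTS) and 7.69 (NTS/PGE2). Ltbr, the receptor for membrane lymphotoxin and LIGHT, read 8.95 (control), 9.35 (NTS) and 8.88 (NTS/PGE2).

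For NTS against control these receptor differences were 0.24 for Tnfrsf1a, 0.43 for Tnfrsf1b and 0.40 for Ltbr, each above the probe set SD of 0.22 and none as large as 1.5-fold. NTS/PGE2 was lower than NTS by differences of -0.45 for Tnfrsf1a, -0.69 for Tnfrsf1b and -0.47 for Ltbr. The Tnfrsf1b difference was 1.62-fold, while the other two were under 1.5-fold. Against control they were -0.21, -0.26 and -0.08. The macrophage and dendritic cell markers went both ways beside Tnfrsf1b. Of 14 measured, 10 passed the filter for NTS against control. Of these 3 were at least 2-fold higher, among them Cd68 at 2.23, and 2 at least 2-fold lower, among them Csf1r at -1.09, beside 2.70% and 5.42% of all genes. Their mean was 7.78 (control), 7.94 (NTS) and 7.54 (NTS/PGE2), and their part in the result was not tested.

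**Figure D2:**
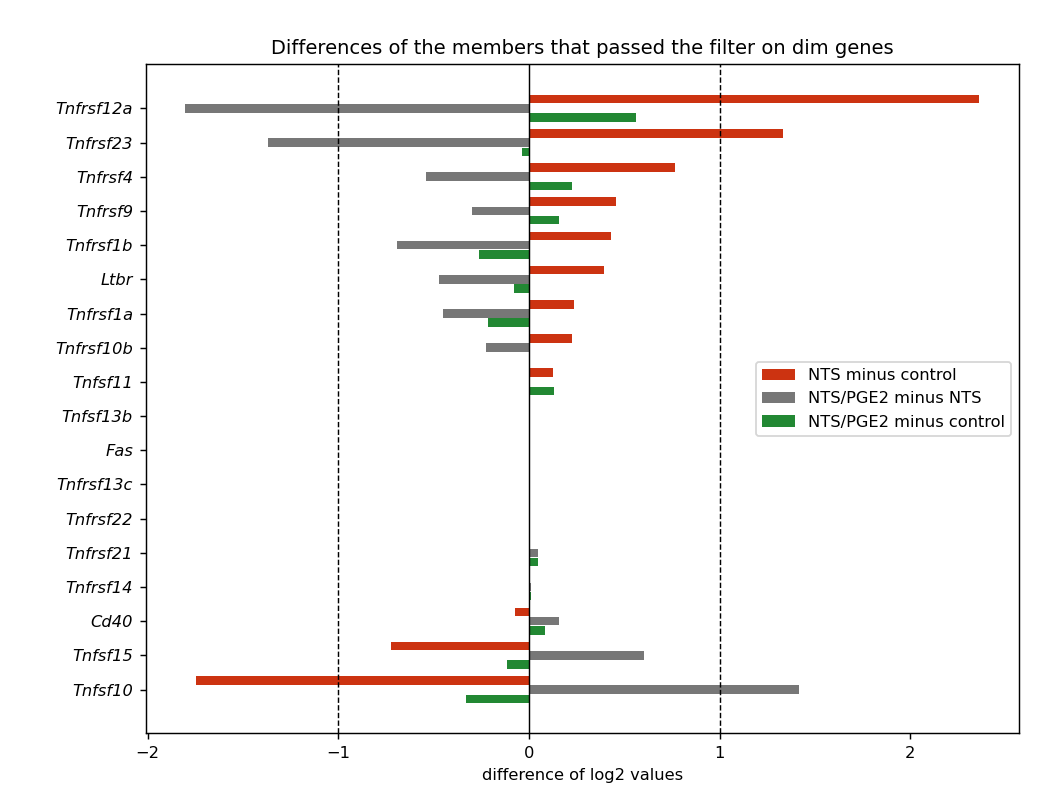
Differences of log2 values (x axis) for the 18 members that passed the filter in at least 1 comparison, ordered by NTS minus control: NTS minus control (red), NTS/PGE2 minus NTS (grey) and NTS/PGE2 minus control (green), with dashed lines at -1 and 1. Tnfrsf12a, Tnfrsf23 and Tnfsf10 passed a dashed line in the red and grey bars, no green bar did, and the 3 bars of a gene are not independent because each array enters 2 of them.

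The costimulatory receptors of activated T cells form the next group. OX40, encoded by Tnfrsf4, read 6.87 in control kidney, 7.64 with NTS and 7.10 with NTS/PGE2, 1.70-fold higher with NTS than in control and 1.46-fold lower with NTS/PGE2 than with NTS. 4-1BB, encoded by Tnfrsf9, read 6.84, 7.30 and 7.00 in the same order, 1.37-fold higher on NTS than on control. For both only the NTS value reached its array's median. Their ligand genes Tnfsf4, at 5.09, 5.15 and 5.09, and Tnfsf9, at 6.13 on all 3 arrays, were dim.

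The other lymphocyte receptors of this group showed little. GITR (Tnfrsf18), next to Tnfrsf4 in the gene table, read 6.61 in control kidney and with NTS and 6.64 on the NTS/PGE2 array. CD30 (Tnfrsf8), next to Tnfrsf1b, read 6.80, 6.80 and 6.88. Cd27 read 5.89 on all 3 arrays, and the ligand genes Tnfsf18 and Tnfsf8 read from 4.64 to 4.83. Of the 14 measured T and NK cell markers, 0 passed the filter in any comparison, against 11778, 11699 and 11534 of all 19938 genes in the 3 comparisons. Below the 25th percentile on all 3 arrays lay 6 of the 14, against 17.6% of all genes. The mean of the 14 markers was 6.00 (control), 5.90 (NTS) and 6.03 (NTS/PGE2). Their part in the values of this group was not tested.

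CD40, a receptor of B cells, macrophages and dendritic cells, read 7.25 in control kidney, 7.18 with NTS and 7.33 with NTS/PGE2, and its ligand gene Cd40lg read 4.73 on all 3. HVEM (Tnfrsf14), the receptor for LIGHT, read 7.31, 7.31 and 7.32, and LIGHT itself (Tnfsf14) 5.33, 5.33 and 5.36. These differences were all smaller than the probe set SD. Among the genes of B cell survival, BAFF (Tnfsf13b) read 7.31 on all 3 arrays, its receptor BAFF-R (Tnfrsf13c) 7.62, TACI (Tnfrsf13b) 6.75 and BCMA (Tnfrsf17) 5.90, again on all 3. Of 9 B and plasma cell markers 0 were 2-fold different in any comparison. With NTS relative to control 3 of the 9 passed the filter, with NTS/PGE2 relative to NTS 2, and with NTS/PGE2 relative to control 3. Among all passing genes 8.12%, 7.44% and 0.720% differed as much in that order, so the count of 0 says little. The mean of the 9 markers was 6.41 (control), 6.43 (NTS) and 6.44 (NTS/PGE2).

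The death receptor pair Fas and Fasl had equal values on all 3 arrays, 7.88 for Fas and 5.36 for Fasl. DR6, encoded by Tnfrsf21, read 12.40 in control kidney and with NTS and 12.45 on the NTS/PGE2 array. Of the 5 death domain receptor genes, Tnfrsf1a, Fas, Tnfrsf10b, Tnfrsf25 and Tnfrsf21, 0 differed 1.5-fold in any comparison. With 4, 4 and 3 of the 5 passing the filter, and 19.6%, 18.9% and 2.71% of all genes past 1.5-fold in the 3 comparisons, this count says little. The bone and lymph node cytokine RANKL (Tnfsf11) read 7.60 in control kidney, 7.73 with NTS and 7.74 with NTS/PGE2, and its receptor RANK (Tnfrsf11a) 6.98 on all 3. TROY (Tnfrsf19), a receptor of epithelial stem cells, read 6.82 in control kidney and 6.72 on the other arrays.

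Counts past 1.5-fold were also taken by role. Of the 4 ligands that passed the filter for NTS against control, 2 were at least 1.5-fold lower, where 11.9% of genes were, and 0 higher. Of the 14 receptors that passed, 3 were at least 1.5-fold higher, where 7.62% of genes were, and 0 lower; Tnfrsf26, 1.71-fold lower with NTS than in control and 1.56-fold higher with NTS/PGE2 than with NTS, lay on the ligands' side but did not pass the filter. For NTS/PGE2 against NTS, 2 of 4 ligands were at least 1.5-fold higher, against 9.98% of genes, and 3 of 14 receptors at least 1.5-fold lower, against 8.93%. Either way the members past 1.5-fold were 5 of 18 in each of these comparisons, against 19.6% and 18.9% of genes. For NTS/PGE2 against control, 0 of 14 members differed 1.5-fold, against 2.71% of genes. Tnfrsf23 and Tnfrsf4 passed the filter through their NTS value alone, so they entered these counts only by being high there. Likewise the ligand Tnfsf15, at 6.70 with NTS, lay below that array's median. It passed only through its control value of 7.42 and its NTS/PGE2 value of 7.31, so it entered the ligand counts only by being higher there. The counts are small, and the difference between ligands and receptors was not tested.

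**Figure D3:**
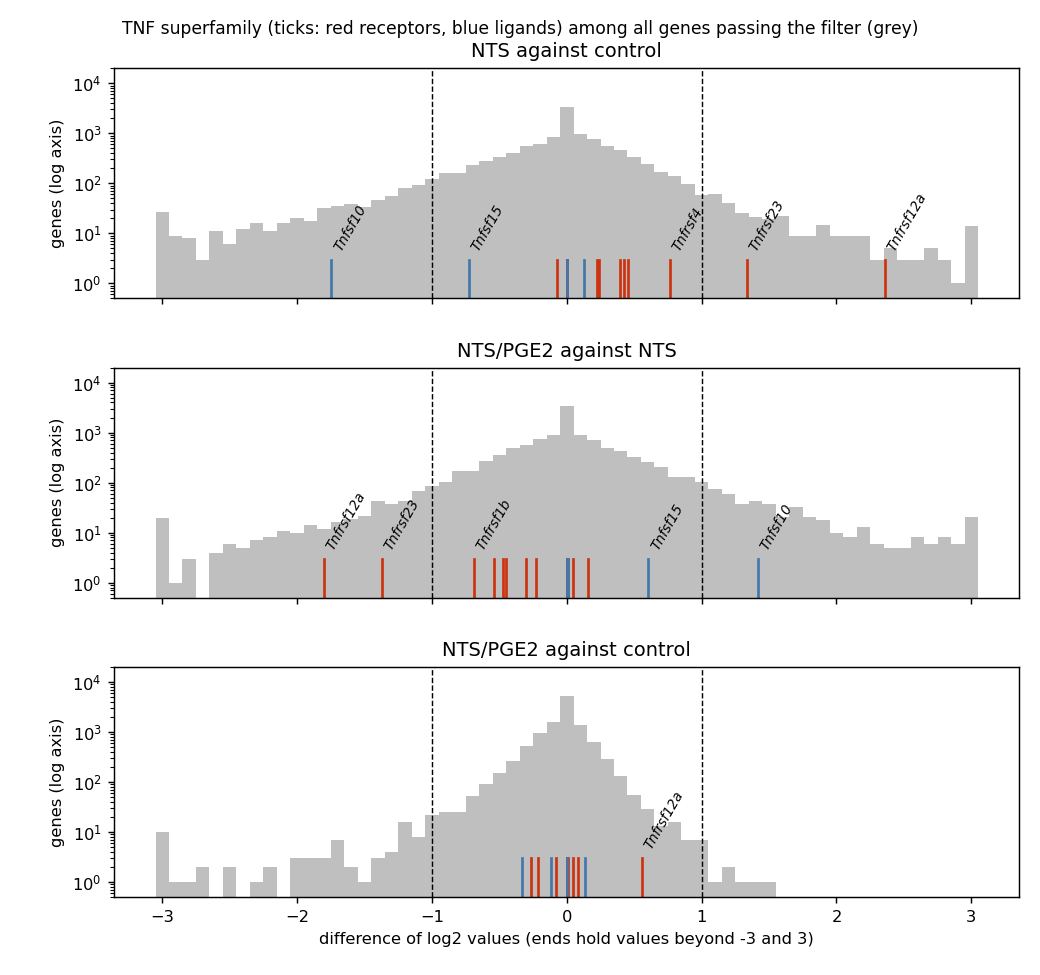
Distribution of log2 differences of all genes passing the filter (grey, number of genes on a log axis) in each of the 3 comparisons, with the passing members as ticks (receptors red, ligands blue) and names for the larger differences; dashed lines mark -1 and 1. Most ticks lie in the body of the distribution, and the members beyond a dashed line are Tnfrsf12a, Tnfrsf23 and Tnfsf10 in the upper 2 panels.

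Many members had no difference to describe. Exactly equal values on all 3 arrays were found in 14 of 38 members (36.8%) and in 29.1% of all genes, with 7 of 14 among the ligands and 7 of 24 among the receptors. Members were also often dim: 20 of 38 (52.6%) lay below the median on every array, against 40.5% of all genes. Among such dim genes 10 of 20 members and 51.0% of all genes had equal values. Below the 25th percentile on all 3 arrays, where values may be background, lay 6 of 38 members (15.8%), against 17.6% of all genes: the ligand genes Cd40lg, Fasl, Tnfsf14, Tnfsf18, Tnfsf4 and Tnfsf8. RMA takes medians over probes and arrays, and with 3 arrays this returns equal values for many probe sets, so equal values are no measure of an unchanged gene. The median difference over all 38 members was 0 in each comparison, as it was over all genes.

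The signalling genes downstream were read from a list of 25 adaptors and death signalling genes, 23 of them measured. For NTS against control 1 was at least 2-fold higher and 1 at least 2-fold lower, of 21 that passed the filter, beside 2.70% and 5.42% of all genes, and the list's median was 0. The higher one was Traf6, an adaptor and ubiquitin ligase shared with the IL-1 and Toll-like receptors, which read 8.96 in control kidney, 10.09 with NTS and 9.12 with NTS/PGE2. The lower one was Fadd, which links death receptors to caspase-8, at 8.37 in control kidney, 7.26 with NTS and 7.90 with NTS/PGE2. Its difference of NTS/PGE2 from control was -0.48. Birc3 (cIAP2), a TRAF-bound ubiquitin ligase, read 8.07, 8.89 and 7.92 in the same order, and Casp8 read 10.42, 10.75 and 10.33. For NTS/PGE2 against NTS 0 of 21 were 2-fold different, beside 7.44% of all genes.

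In the NF-kappaB list, 20 of 22 genes were measured and 0 were 2-fold different in any comparison. With NTS set beside control, 19 passed the filter, where 8.12% of all passing genes were 2-fold different. With NTS/PGE2 set beside NTS it was 19 and 7.44%, and beside control 18 and 0.720%. At these shares a count of 0 says little. For NTS against control 16 of 20 were above 0, 1 below and 3 equal, against 32.8% of all genes above 0 and 30.2% below. These shares are not like for like, because all genes include many that were below the median on every array. Among such dim genes 51.0% had equal values on all 3 arrays, against 14.2% of the others. The median was 0.12 against 0 over all genes. Larger than the probe set SD of 0.22 were 7 of the 20 differences, beside a similar share of all genes, 6423 of 19938. For NTS/PGE2 against NTS 15 were below 0 and 5 equal, against 29.3% of all genes below 0, with a median of -0.09. Again 7 of the 20 lay beyond the probe set SD, beside 6269 of all 19938 genes. The same NTS array enters both comparisons, so their counts are not independent. Tab2, an activator of the kinase TAK1, read 10.57 in control kidney, 11.30 with NTS and 10.70 with NTS/PGE2. It was the only gene of the list at least 1.5-fold higher on NTS than on control, against 7.62% of all genes that passed. The inhibitor gene Nfkbia, itself induced by NF-kappaB, read 9.75, 10.24 and 9.84 in that order, and Relb 6.91, 7.29 and 6.91. Tnfaip3 (A20), another induced inhibitor, read 7.48, 7.49 and 7.43.

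Genes known to be induced by TNF went both ways. Of 27 measured, 16 passed the filter for NTS against control, where 1 was at least 2-fold higher and 1 at least 2-fold lower, beside 2.70% and 5.42% of all genes, and the list's median was 0. The adhesion molecule gene Icam1 read 8.50 in control kidney, 9.61 with NTS and 8.61 with NTS/PGE2. The cyclooxygenase gene Ptgs2 was the lower one, at 7.93 in control kidney, 6.70 with NTS and 7.66 with NTS/PGE2. Sod2, the mitochondrial superoxide dismutase, read 12.27 (control), 11.40 (NTS) and 12.25 (NTS/PGE2), and the cytokine gene Il1b 7.35, 6.53 and 6.83. Junb, an AP-1 subunit, read 8.21 in control kidney, 9.07 with NTS and 7.94 with NTS/PGE2. At -1.13 it was the only one of 15 passing genes 2-fold different between NTS/PGE2 and NTS, beside 7.44% of all genes. Ccl2 and Il6 had equal values on all 3 arrays, 6.43 and 3.47, both below the medians.

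**Figure D4:**
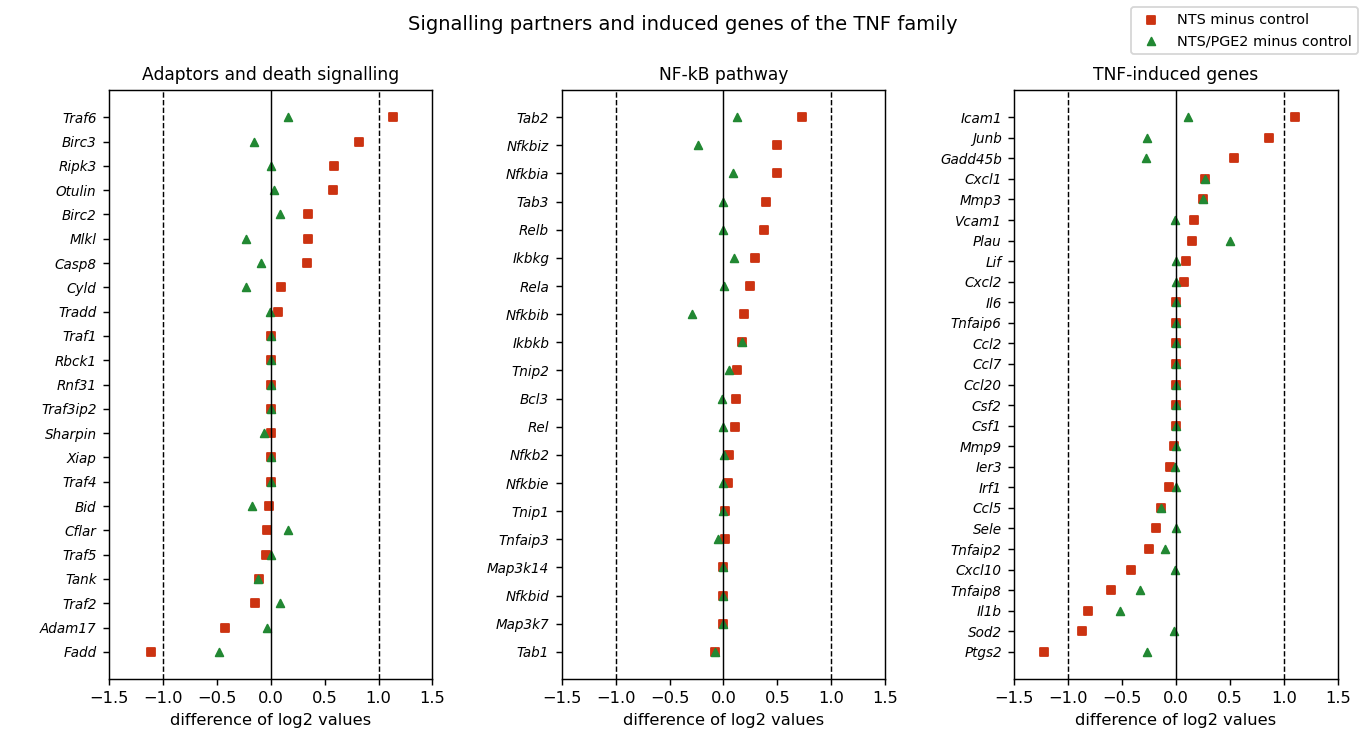
Differences from the control array, on the log2 scale (x axis), of the measured genes in the lists of adaptors and death signalling, the NF-kappaB pathway and TNF-induced genes: NTS minus control (squares) and NTS/PGE2 minus control (triangles), with dashed lines at -1 and 1. Traf6 and Icam1 lay above 1 and Fadd and Ptgs2 below -1 on the NTS array, and no triangle lay past a dashed line.

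The 6 listed genes of the superfamily with other symbols were read beside the members. The ectodysplasin receptor gene Eda2r read 5.41 in control kidney, 6.21 with NTS and 5.65 with NTS/PGE2, all below the medians. Relt read 6.49, 6.73 and 6.49 in that order and Cd70, the ligand of CD27, 5.90, 5.90 and 5.98. Eda, Edar and Ngfr had equal values on all 3 arrays.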

How the data were processed

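Total RNA, 250 ng per array, was labelled with biotin, per the labels' protocols. The deposited values are log2 expression made by RMA in Affymetrix Expression Console, per the submitters' processing notes. Tool versions and the build used are not given in the sources here. RMA subtracts background, equalises the distributions of single probes and then combines each set's probes by median polish, which can understate small differences. Scanner values were not used, and no probe could be compared with its background.

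Of 35556 probe sets, the platform annotation gave 21789 a single gene symbol and 1621 several; only the former were compared. A gene's probe sets were averaged, and all 38 members kept their symbol in a RefSeq table of GRCm38.p6, matched by gene identifier. Counts used a log2 difference of at least 1 among genes passing the filter, and 1.5-fold as an alternative. Every member is named, and from the other lists the genes past 2-fold, with some further genes chosen after their values were seen. The promoter windows of Tnfrsf23, Tnfrsf9 and Ltb were also chosen after the values and matches were seen. For Tnfrsf9 a window was printed only if it held an NF-kappaB match, and Tnfrsf8, which also had a match, was not printed. Members and lists were chosen with earlier results of these data known, and some genes stand in more than 1 list. The size rule was run on simulated data with planted differences above the 2-fold cut and noise below the probe set SD. That run checks the calculation only and says nothing of error in the real arrays. The calculation used Python 3.11.15 with pandas 2.3.3 and numpy 2.4.6.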

Additional observations from a re-analysis of the deposited data

How the results depend on the processing

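With 1 array per group, values could be recomputed but not tested, and the number of arrays limits every one of them. At 1.5-fold in place of 2-fold, the members counted as different became 5 in place of 3 for NTS against control (3 higher, 2 lower, with 19.6% of all genes) and 5 in place of 3 for NTS/PGE2 against NTS (2 higher, 3 lower, with 18.9% of all genes). The counts stayed at 3, 3 and 0 with no filter on dim genes, then out of 38 members in each comparison. There 5.15%, 4.66% and 0.456% of all genes differed as much. They were the same with the filter at the 25th percentile, then out of 32 members in each comparison (6.22%, 5.62% and 0.557% of all genes). Centring each array on its median and quantile normalization over the 3 arrays also left them unchanged. Taking the brightest probe set per gene could not change them, because each member has 1 probe set. Centring moved the differences of the 18 members that passed the filter by at most 0.03 and quantile normalization by at most 0.04, each less than the probe set SD. The median difference over members stayed within that SD of 0 when arrays were centred (-0.003, -0.03 and -0.03 for the 3 comparisons) or the members passing the filter were taken (0.06, 0 and 0). No paired analysis was possible because each group had 1 array.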
